A study of Mus musculus with 8 samples.

Results

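Collagen genes were followed in pancreatic islets of knock-out and wild type mice. Their members were all probe sets annotated to 1 gene whose symbol has the form of a collagen chain name (Col, a type number, a, a chain number), which gave 56 probe sets of 38 genes among the 24965 probe sets of the series. By the type of collagen, 17 probe sets of 10 genes were fibrillar, 13 of 8 genes belonged to basement membranes (type IV and the multiplexins, types XV and XVIII), and 26 of 20 genes were of other types. MG-U74A held 44 of the probe sets, for 31 genes, and MG-U74B held 12, for 11 genes, with 4 genes on both.

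Total RNA of islets, the hormone-secreting cell clusters of the pancreas, came from mice in which the labels name 1 gene as knocked out and from wild type mice. Each genotype had 2 replicates, called biological in the series' design, and each replicate label had 1 array of the Affymetrix type MG-U74A and 1 of the type MG-U74B, 8 arrays in all. Strain, age, sex and the allele of the knock-out are not given in the sources used here, nor is whether animals were pooled. A probe set is a group of short DNA probes for 1 transcript, and its value is a linear intensity, which can fall below 0 where the mismatched control probes were brighter.

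Collagens are triple-helical proteins of the extracellular matrix. Fibrillar collagens are made as procollagens, hydroxylated and folded in the endoplasmic reticulum, trimmed outside the cell and cross-linked into the banded fibrils that give connective tissue its strength, and they come mainly from fibroblasts and, in a scarring pancreas, from activated stellate cells. Type IV collagen forms the sheet-like network of basement membranes, which in the islet lie around the capillaries, and type VI collagen forms beaded filaments between the cells and the fibrils.

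The arrays of the genotypes also differed outside the collagens, and each result below stands beside these values. Gapdh has probe sets at both ends of its transcript, and the intensity of the 3' one divided by that of the 5' one, which is higher where the labelled RNA is less complete, was 0.949 and 0.937 on the knock-out arrays of MG-U74A against 3.15 and 3.22 on the wild type arrays. On MG-U74B it was 0.900 and 0.914 on the knock-out arrays against 3.07 and 3.13 on the wild type arrays. The same ratio of beta-actin differed less, at 1.16 and 1.13 on the knock-out arrays against 1.48 and 1.45 on the wild type arrays of MG-U74A. All 7 tested beta cell markers fell on MG-U74A, with a median log2 change of -2.46, though by unlike amounts. Iapp (amylin) stayed bright, at 15485 and 14092 on the knock-out arrays and 19797 and 20141 on the wild type arrays. Slc2a2 read 31.5 and 13.2 on the knock-out arrays and 705 and 662 on the wild type arrays. Pdx1, a transcription factor of beta cells, read 23.1 and -6.1 on the knock-out arrays and 155 and 264 on the wild type arrays. Markers of acinar cells, which make digestive enzymes, summed over 5 genes to 4678 and 4207 on the knock-out arrays and 34939.6 and 35169.5 on the wild type arrays. The part of these differences in the changes of the collagens was not tested. Bulk RNA cannot tell more cells of a type from more RNA per cell, here or in any result below.

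On MG-U74A more of the measured collagen transcripts were higher than lower in knock-out islets. Over all 44 probe sets both knock-out arrays lay above both wild type arrays for 20 and below them for 11, and the genotypes overlapped for 13. Over all probe sets of the array type that are not controls these shares were 33.6% above and 36.2% below, and order among values below 0 carries no meaning. Of the 44 probe sets 28 had a mean over the 4 arrays high enough to be tested (at least 62.5, 25% of the common trimmed mean), and of these 17 rose, 2 fell and 9 did not pass the threshold (adjusted p of 0.05 in limma). Among all 7516 tested probe sets of this array type 23.9% rose, 29.0% fell and 52.9% changed. The median log2 change of the tested collagens was 0.78, against -0.09 over all tested probe sets. Of the 28, 17 had both knock-out arrays above both wild type arrays and 5 below, where the shares over all tested probe sets were 35.2% and 43.9%, and the genotypes overlapped for 6. A high level in either genotype helps a member past the filter, so these counts do not stand for all 44. Counted by gene, with the tested probe set of the highest mean for each, 11 of 20 genes rose and 2 fell, with a median log2 change of 0.42. Rises spanned 1.31-fold to 11.3-fold in mean intensity over both array types.

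**Figure D1:**
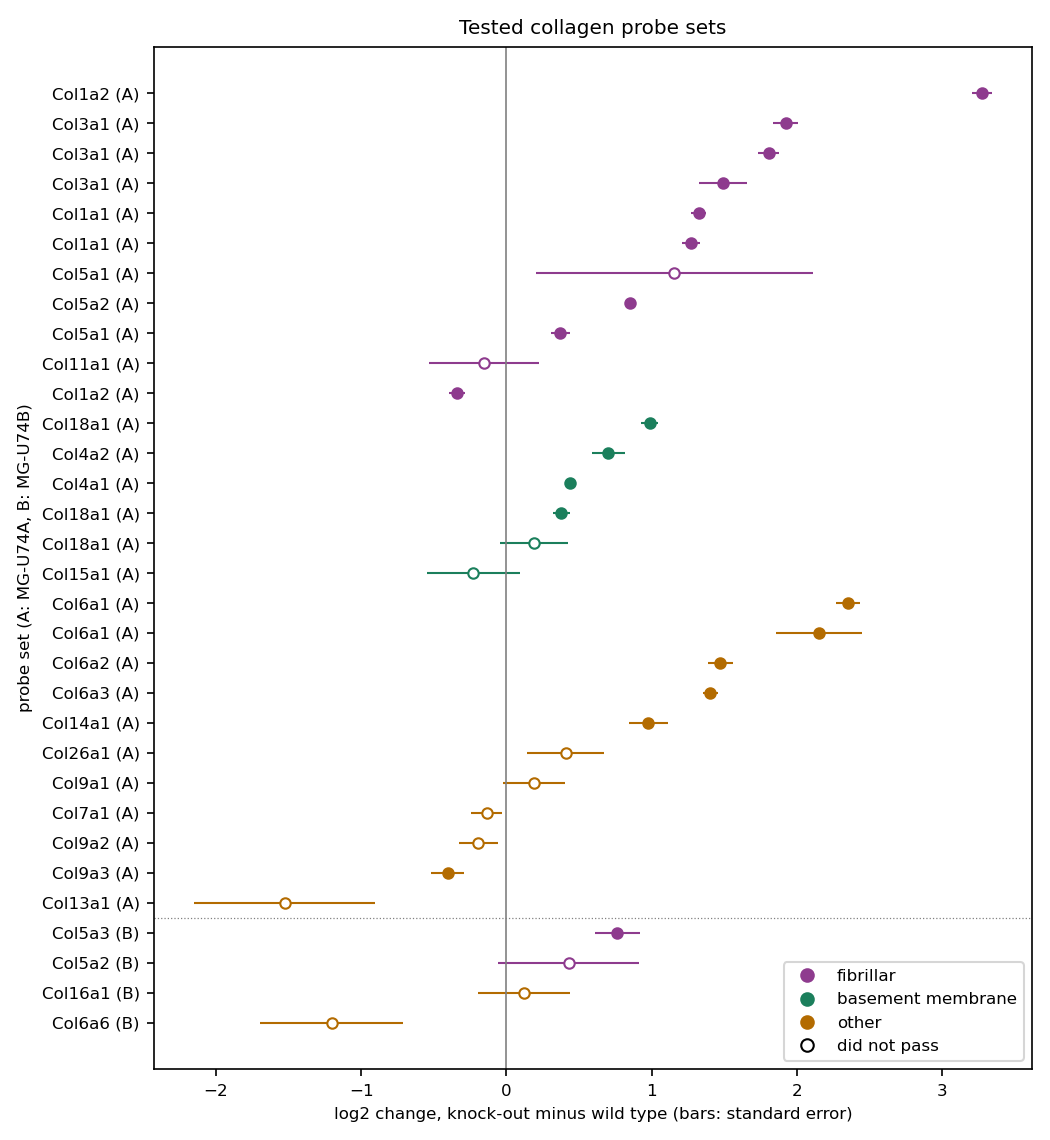
Log2 change, knock-out minus wild type, of the 28 collagen probe sets tested on MG-U74A (above the dotted line) and the 4 tested on MG-U74B (below it), coloured by class, with bars for the standard error and open circles for those that did not pass the threshold. Fibrillar and type VI probe sets hold the largest rises, the top point being Col1a2 at 3.27, while another Col1a2 probe set lies at -0.34.

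On MG-U74B few collagens were measured well. Of its 12 collagen probe sets 4 were tested, of which 1 rose, 3 did not pass and 0 fell by limma. At an unadjusted p under 0.05 there was 1 change, the same rise. Over the 7861 tested probe sets of MG-U74B 8.59% rose, 8.87% fell and 17.5% changed, and the median log2 change was 0.28 for the 4 collagens and 0.11 for all tested probe sets. Knock-out arrays lay above wild type arrays for 1 of the 4 and below them for 1, where the shares over all tested probe sets were 36.2% and 28.8%.

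Among fibrillar collagens on MG-U74A 8 of 11 tested probe sets rose and 1 fell, and the median of their log2 changes was 1.27. Over all tested probe sets of this array type 23.9% rose and 29.0% fell. Counted by gene, with 1 probe set each, 4 of 6 fibrillar genes rose and 1 fell, with a median log2 change of 0.61. Types I, III and V, the collagens of ordinary connective tissue, held all 8 rises among the probe sets. The largest was in Col1a2, the alpha 2 chain of type I collagen, the main collagen of scar, bone and tendon. Its probe set 101130_at read 1472 and 1555 in knock-out islets, against 139 and 129 in wild type islets. Knock-out arrays were thus far above wild type arrays, 11.3-fold in mean intensity, with a log2 change of 3.27 ± 0.07 (SE, n = 2 each, adjusted p = 1.01e-04), and 1.06% of tested probe sets had a larger rise.

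A second probe set of Col1a2 went the other way. Probe set 161156_r_at read 840.2 and 784 in knock-out islets and 1026 and 1041 in wild type islets. The knock-out arrays were the lower here, with a log2 change of -0.34 ± 0.05 (adjusted p = 0.00918), so the gene had no single direction across its probe sets. The suffix r in Affymetrix names marks sets built with fewer of the usual probe selection rules, and f marks sets that may match several related sequences. The fall was lost when either wild type array was left out (adjusted p = 0.0686 without replicate 1 and 0.0785 without replicate 2). Because this set has the higher mean it stands for Col1a2 in the count of genes, where it is 1 of the 2 falls.

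Col1a1, the alpha 1 chain of type I collagen, rose on both of its probe sets. Probe set 94305_at read 3429 and 3689 in knock-out islets against 1381 and 1431 in wild type islets. Probe set 103709_at read 1287 and 1407 in knock-out islets against 532 and 554 in wild type islets. The 2 sets gave nearly the same ratio, 2.53-fold and 2.48-fold, with log2 changes of 1.32 ± 0.05 (adjusted p = 2.89e-04) and 1.27 ± 0.06 (adjusted p = 4.84e-04).

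Col3a1, which forms type III collagen, the fine fibrils of vessel walls and of early repair tissue, rose on all 3 of its probe sets. Probe set 98331_at read 3761 and 4418 in knock-out islets against 1054 and 1062 in wild type islets. Probe set 161984_f_at read 734 and 719 in knock-out islets against 185 and 196 in wild type islets. Probe set 102990_at read 273 and 308 in knock-out islets against 99.5 and 75.8 in wild type islets. No knock-out array came near a wild type array on any of the 3, and the log2 changes were 1.92 ± 0.09 (adjusted p = 3.81e-04), 1.80 ± 0.07 (adjusted p = 2.91e-04) and 1.49 ± 0.16 (adjusted p = 0.00335).

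Type V collagen sits inside type I fibrils and limits their width, and its 3 chains were all measured. Col5a2, the alpha 2 chain, read 1958 and 1911 in knock-out islets against 1059 and 1059.7 in wild type islets on MG-U74A, a log2 change of 0.85 ± 0.04 (adjusted p = 3.62e-04). On MG-U74B its other probe set read 73.1 and 137 in knock-out islets against 77.3 and 60.5 in wild type islets. Those groups overlapped, and the log2 change of 0.43 ± 0.49 did not pass (adjusted p = 0.561). Col5a1, the alpha 1 chain, read 591 and 555 in knock-out islets against 431 and 444 in wild type islets on probe set 93472_at, a log2 change of 0.37 ± 0.06 (adjusted p = 0.0119). Leaving out wild type replicate 1 or 2 ended this call (adjusted p = 0.0904 and 0.0743). Its other tested probe set, 101080_at, read 80.4 and 197 in knock-out islets and 137 and 4.2 in wild type islets, a spread too wide for a call (1.15 ± 0.95, adjusted p = 0.363).

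Col5a3, the alpha 3 chain of type V collagen, was the 1 collagen that rose on MG-U74B. It read 1021 and 859.7 in knock-out islets against 562 and 522 in wild type islets, with both knock-out arrays the higher. The log2 change was 0.76 ± 0.15 (adjusted p = 0.0347). The call depended on the setting, with an adjusted p of 0.0808 without the filter on low means and 0.0937 without the variance trend. Leaving out 1 array at a time ended it each time. Such fits have 1 array in a genotype and lost most or all rises of this array type. They therefore say little about Col5a3 in particular.

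The remaining fibrillar collagens are better known from cartilage, where types II, IX and XI build the fibrils. Col11a1, of type XI, read 86.7 and 33.7 in knock-out islets and 60.1 and 70.2 in wild type islets, with no call (-0.15 ± 0.38, adjusted p = 0.757). Col2a1, the chain of type II collagen, was too low to test, at 91.5 and 39.0 in knock-out islets and 34.2 and 61.6 in wild type islets, and so were Col11a2 and both probe sets of Col27a1. Markers of chondrocytes, the cells of cartilage, had 4 genes on MG-U74A, which summed to 66.7 and 53.4 in knock-out islets and 164 and 149 in wild type islets, with Matn3 at or below 0 on both wild type arrays. The 1 tested of these markers, Acan, did not pass the threshold. Sox9, measured on MG-U74B and also made in duct cells, read 301 and 309.5 in knock-out islets and 173 and 141 in wild type islets and did not pass either (0.86 ± 0.27, adjusted p = 0.0913).

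The probe sets with the largest rises belonged to Col1a2, Col6a1 and Col3a1, and the promoter windows of these genes (250 bases before to 50 after the annotated start, from RefSeq, assembly GRCm38.p6, 5' to 3' on the gene's strand) are shown as the sequence beside those rises. Capitals mark matches, on either strand, of the CCAAT box, searched as CCAAT, of the GC box, searched as GGGCGG, and of the TATA box, searched as TATAAA. No match overlaps another in these windows. The Col1a2 window is chr6:4505368-4505667 on the plus strand, the Col3a1 window chr1:45311288-45311587 on the plus strand and the Col6a1 window chr10:76725995-76726294 on the minus strand.
Col1a2: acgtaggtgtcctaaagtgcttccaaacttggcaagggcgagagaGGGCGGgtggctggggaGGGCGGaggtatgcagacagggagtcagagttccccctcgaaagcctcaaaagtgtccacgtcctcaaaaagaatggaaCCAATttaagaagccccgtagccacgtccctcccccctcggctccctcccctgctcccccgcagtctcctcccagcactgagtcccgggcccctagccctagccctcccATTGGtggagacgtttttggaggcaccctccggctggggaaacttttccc
Col3a1: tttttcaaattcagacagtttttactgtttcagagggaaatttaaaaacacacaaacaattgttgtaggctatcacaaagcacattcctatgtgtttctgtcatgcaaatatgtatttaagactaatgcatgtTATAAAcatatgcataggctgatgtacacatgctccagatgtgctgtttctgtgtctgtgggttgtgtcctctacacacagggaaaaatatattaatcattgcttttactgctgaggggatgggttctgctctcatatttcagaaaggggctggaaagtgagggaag
Col6a1: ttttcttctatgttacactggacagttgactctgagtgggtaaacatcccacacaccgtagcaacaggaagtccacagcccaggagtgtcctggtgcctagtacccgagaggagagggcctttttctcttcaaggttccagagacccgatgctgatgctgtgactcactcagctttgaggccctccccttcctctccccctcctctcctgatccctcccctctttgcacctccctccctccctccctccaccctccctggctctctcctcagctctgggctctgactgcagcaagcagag
The Col1a2 window holds 2 matches each of CCAAT and GGGCGG, the Col3a1 window 1 match of TATAAA, and the Col6a1 window none of the motifs. Over 32 windows that the table holds for 29 of the 38 collagen genes, CCAAT was in 34.4%, GGGCGG in 62.5% and TATAAA in 15.6%. The shares of all 32851 windows were 37.4%, 35.7% and 13.6%. GGGCGG is made of G and C alone, and the median content of G and C was 60.7% in the collagen windows against 52.7% in all windows.

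Among basement membrane collagens on MG-U74A 4 of 6 tested probe sets rose and the other 2 did not pass, and the median of their log2 changes was 0.41. Counted by gene, with 1 probe set each, 3 of 4 rose, with a median log2 change of 0.57. Over all tested probe sets of this array type 23.9% rose. Col4a1, the alpha 1 chain of type IV collagen, read 2370.4 and 2375 in knock-out islets against 1748 and 1739 in wild type islets. Each pair was close together and the pairs well apart, so that a log2 change of 0.44 ± 0.03 passed (adjusted p = 0.00115). Col4a2, the alpha 2 chain, with which it joins in the most widespread form of the network, read 1675 and 1361 in knock-out islets against 891 and 949 in wild type islets. Its log2 change was 0.70 ± 0.11 (adjusted p = 0.00977), a call that ended without the filter on low means (adjusted p = 0.0544) and when wild type replicate 1 was left out (adjusted p = 0.0565).

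Col4a1 and Col4a2 lie head to head on opposite strands, the arrangement for which the type IV genes are known. Their starts in RefSeq are 21 bases apart, and each lies inside the other gene, so that the annotated 5' ends overlap. The windows, chr8:11312777-11313076 on the minus strand for Col4a1 and chr8:11312555-11312854 on the plus strand for Col4a2 (GRCm38.p6), overlap by the 78 bases in capitals, chr8:11312777-11312854, which are each other's reverse complement.
Col4a1: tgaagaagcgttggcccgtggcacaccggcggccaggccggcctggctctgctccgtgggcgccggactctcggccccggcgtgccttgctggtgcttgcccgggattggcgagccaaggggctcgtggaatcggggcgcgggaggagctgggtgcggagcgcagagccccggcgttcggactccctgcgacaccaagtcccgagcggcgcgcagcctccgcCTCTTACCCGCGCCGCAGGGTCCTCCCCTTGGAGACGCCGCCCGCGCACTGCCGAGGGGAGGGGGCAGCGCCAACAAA
Col4a2: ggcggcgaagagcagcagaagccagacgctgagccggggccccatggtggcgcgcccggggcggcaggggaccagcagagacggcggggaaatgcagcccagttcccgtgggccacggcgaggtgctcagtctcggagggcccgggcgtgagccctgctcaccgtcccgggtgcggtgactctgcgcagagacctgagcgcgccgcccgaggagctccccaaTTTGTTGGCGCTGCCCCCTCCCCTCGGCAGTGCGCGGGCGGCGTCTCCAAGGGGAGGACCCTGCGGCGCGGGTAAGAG
Of the motifs, the Col4a1 window holds 1 match each of CCAAT and GGGCGG and the Col4a2 window 1 of CCAAT and 3 of GGGCGG. The rises of the pair, 1.36-fold and 1.65-fold in mean intensity, were not tested against each other.

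The other 4 chains of type IV collagen, which replace alpha 1 and alpha 2 in kidney and other specialised membranes, were too low to test. Col4a5 on MG-U74A and Col4a6 on MG-U74B were at or below 0 on all 4 arrays, as was the Col4a3 probe set of MG-U74A. Col4a4 was above 0 on 1 knock-out array alone, at 36.8. The Col4a3 probe set of MG-U74B read 13.1 and -11.3 in knock-out islets and 71.1 and -47.3 in wild type islets. Values below 0 carry no order, so no direction can be read from them.

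Multiplexins are basement membrane collagens with interrupted helices, and their released ends, such as endostatin from type XVIII, are known to restrain vessel growth. Col18a1 had 5 probe sets, of which 3 were tested and 2 rose. Probe set 101881_g_at read 756 and 739 in knock-out islets against 356 and 374 in wild type islets, a log2 change of 0.99 ± 0.06 (adjusted p = 7.15e-04). Probe set 99638_at read 550.3 and 559 in knock-out islets against 430.3 and 412 in wild type islets, with a smaller log2 change of 0.38 ± 0.06 (adjusted p = 0.00926). This second call ended when wild type replicate 1 or 2 was left out (adjusted p = 0.0611 and 0.0826). Groups overlapped on 162483_f_at, at 115 and 81.9 in knock-out islets and 94.3 and 71.2 in wild type islets (0.19 ± 0.23, adjusted p = 0.528). An untested set, 101882_s_at, read 85.7 and 188 in knock-out islets and -105 and -104 in wild type islets, and it passed as a rise when the filter on low means was dropped (adjusted p = 0.0397). The last, 101880_at, was low throughout, at 20.1 and 19.5 in knock-out islets and 31.0 and 27.8 in wild type islets. Col15a1, of type XV, read 180.1 and 348 in knock-out islets and 323 and 277 in wild type islets, with no call (-0.23 ± 0.32, adjusted p = 0.584).

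**Figure D2:**
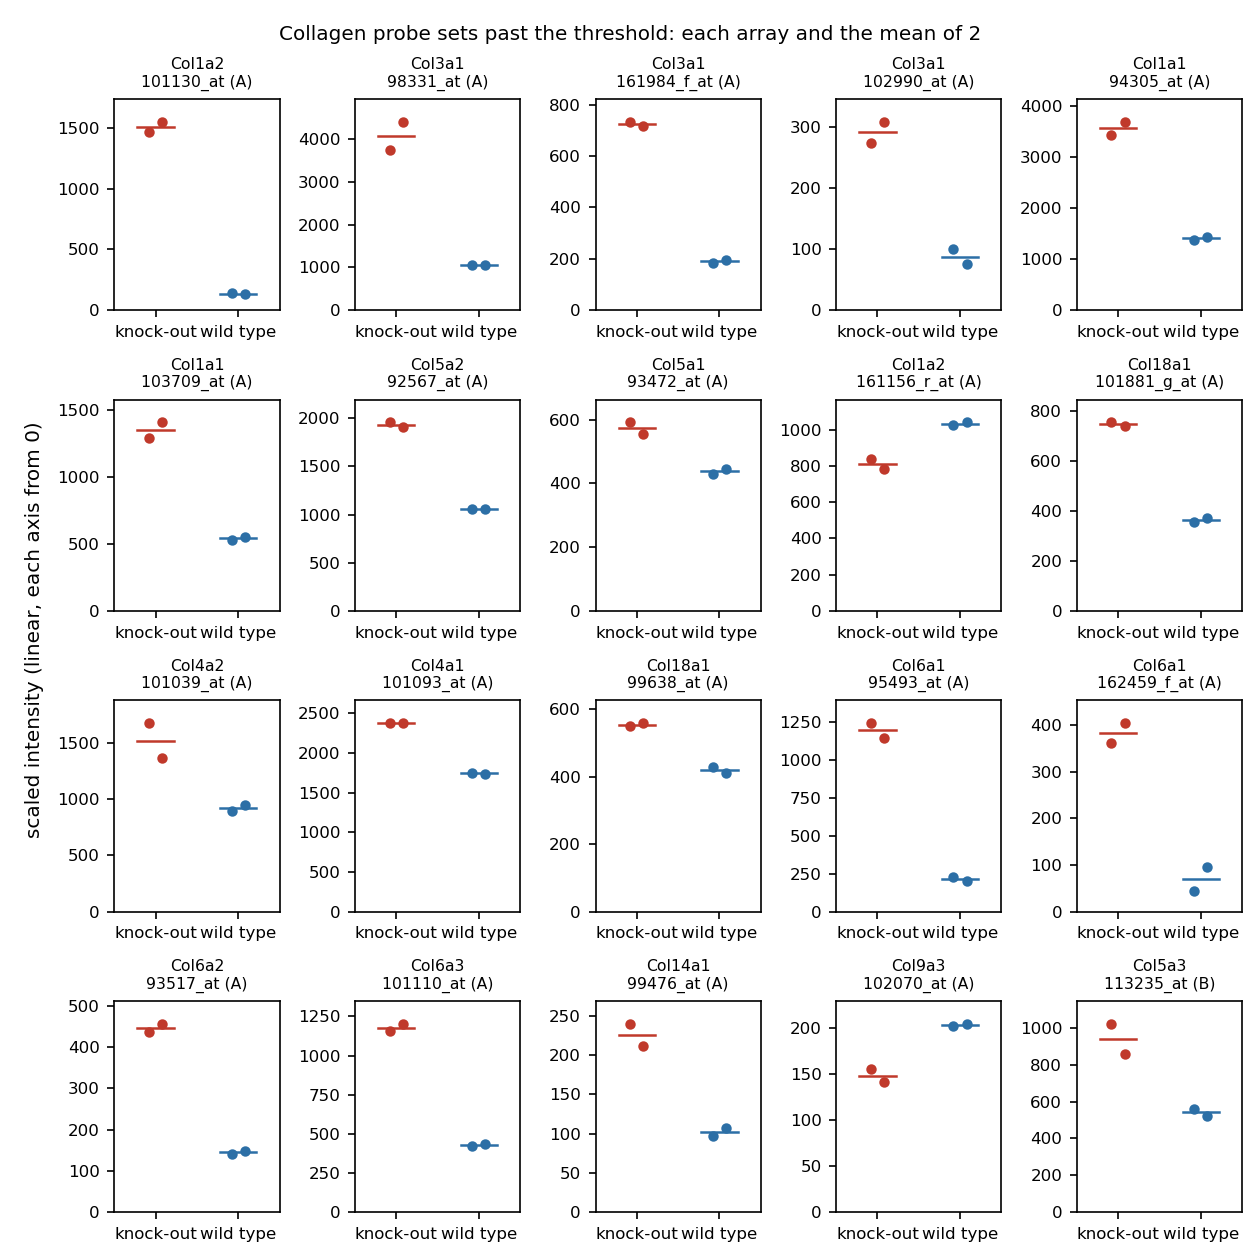
Scaled intensity on each array (points) with the mean of 2 (line) for the 20 collagen probe sets past the threshold, 19 from MG-U74A and 1 from MG-U74B, knock-out left of wild type, each panel on a linear axis from 0. In 18 panels both knock-out points lie above both wild type points, and in 2, Col1a2 on 161156_r_at and Col9a3, they lie below.

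Type VI collagen rose on all 4 of its probe sets on MG-U74A, where 23.9% of all tested probe sets rose. The median log2 change of the 4 was 1.81. Its filaments are built from 1 chain each of alpha 1, alpha 2 and alpha 3, and all 3 chains were higher. Col6a1 read 1244 and 1148 in knock-out islets against 227 and 202 in wild type islets on probe set 95493_at, 5.58-fold in mean intensity and 2.35 ± 0.08 on the log2 scale (adjusted p = 2.50e-04). Its probe set 162459_f_at read 362 and 404 in knock-out islets against 44.9 and 95.1 in wild type islets, a log2 change of 2.15 ± 0.30 (adjusted p = 0.00633). The probe sets of Col6a1 thus gave similar ratios, and 2.69% and 3.34% of tested probe sets had a larger rise.

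Col6a2 read 438 and 457 in knock-out islets against 142 and 148 in wild type islets. Its log2 change was 1.47 ± 0.09 (adjusted p = 6.81e-04). Col6a3, the long chain whose released end is known as endotrophin, read 1154 and 1203 in knock-out islets against 422 and 438 in wild type islets. Its log2 change was 1.40 ± 0.05 (adjusted p = 2.81e-04). No other gene lies between Col6a1 and Col6a2 among the protein-coding genes of the annotation. Col6a6, an alternative chain of type VI, was measured on MG-U74B at 49.2 and 111 in knock-out islets and 266 and 159 in wild type islets. Both knock-out arrays were the lower there, and the log2 change of -1.20 ± 0.49 did not pass (adjusted p = 0.160).

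Collagens of the FACIT type (fibril-associated, with interrupted helices) coat the fibrils rather than form them, and of their 4 tested probe sets on MG-U74A 1 rose and 1 fell. These counts were near the shares over all tested probe sets of the array type, of which 23.9% rose and 29.0% fell. Col14a1, of type XIV, a collagen of tissues under tension, read 239.7 and 212 in knock-out islets against 97.5 and 107 in wild type islets. Its log2 change was 0.98 ± 0.13 (adjusted p = 0.00615), while its probe set on MG-U74B was too low to test, at -161 and 55.4 in knock-out islets and 59.0 and -30.1 in wild type islets. Col9a3, a chain of the cartilage collagen IX, read 155 and 141 in knock-out islets against 202 and 205 in wild type islets. The log2 change was -0.40 ± 0.11, close to the threshold (adjusted p = 0.0450). It did not pass without the filter on low means (adjusted p = 0.0537), nor when wild type replicate 1 (adjusted p = 0.206), wild type replicate 2 (adjusted p = 0.221) or knock-out replicate 2 (adjusted p = 0.0728) was left out.

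The other chains of type IX gave no call. Col9a1 read 257 and 213 in knock-out islets and 166 and 244 in wild type islets on MG-U74A (0.19 ± 0.21, adjusted p = 0.493), and 39.8 and 24.1 in knock-out islets and 12.9 and 2.70 in wild type islets on MG-U74B, where it was not tested. Col9a2 read 323 and 253 in knock-out islets and 326 and 336 in wild type islets (-0.19 ± 0.13, adjusted p = 0.291). Col16a1, of type XVI, on MG-U74B read 204 and 176 in knock-out islets and 149 and 199 in wild type islets (0.12 ± 0.31, adjusted p = 0.808). Both probe sets of Col12a1, a FACIT collagen of dense connective tissue, were low and overlapped between the genotypes, with 74.2 the highest reading.

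Collagens anchored in cell membranes had low readings. Col13a1, a transmembrane collagen of cell junctions, read 55.1 and -5.20 in knock-out islets and 98.6 and 109.6 in wild type islets on probe set 102261_f_at. Both knock-out arrays were the lower, and the log2 change of -1.53 ± 0.62 did not pass (adjusted p = 0.109). Its probe set 102262_r_at read -116 and -82.8 in knock-out islets and 136 and 128 in wild type islets. It was below the filter, and passed as a fall when the filter was dropped (adjusted p = 0.00393). Col17a1, the hemidesmosome collagen of skin, and Col23a1 were low or below 0 in both genotypes. Col7a1, the anchoring fibril of skin, read 172 and 179 in knock-out islets and 198 and 193 in wild type islets, which did not pass (-0.14 ± 0.10, adjusted p = 0.328), nor did Col26a1 (0.41 ± 0.27, adjusted p = 0.264).

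In all, 24 collagen probe sets were too low to test, and 15 of the 38 genes had no tested probe set on either array type. All 4 arrays were at or below 0 for 7 of the 24, some for 8, and none for 9. The short-chain network collagens of vessels and growing cartilage, Col8a1, Col8a2 and Col10a1, were all among them. Col8a1 read 17.3 and 39.8 in knock-out islets and 64.0 and 53.4 in wild type islets, and Col19a1 read 36.8 and 18 in knock-out islets and 83.3 and 65.6 in wild type islets. Both genes lay lower on the knock-out arrays without a test. Col22a1, a FACIT collagen of tissue junctions, was at or below 0 on all 4 arrays, and the untested Col9a3 probe set 162103_i_at read 27.9 and 40.5 in knock-out islets and 40.6 and 5.5 in wild type islets.

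**Figure D3:**
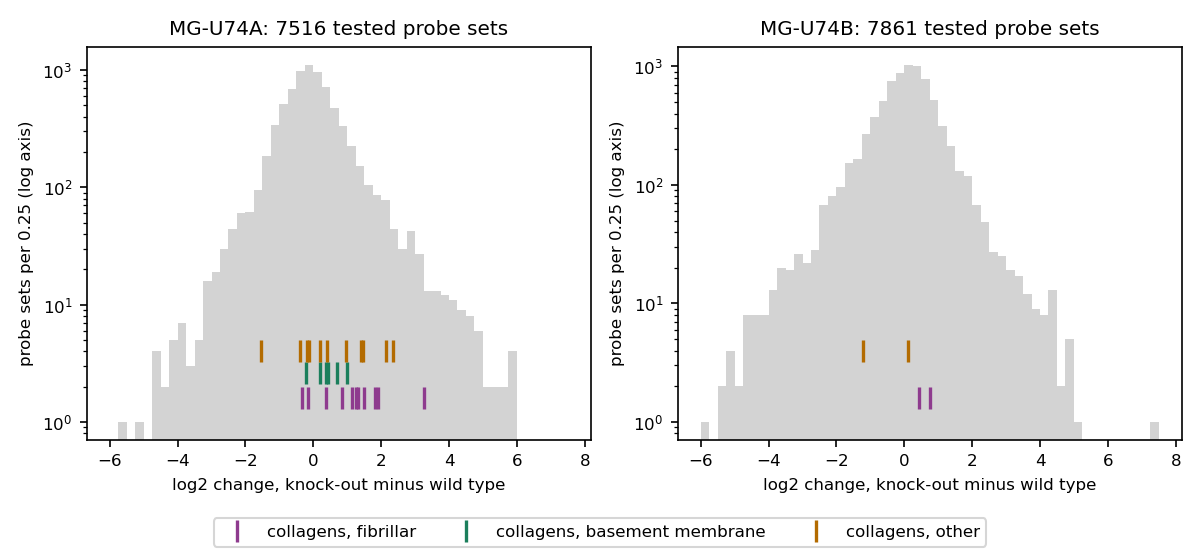
Log2 change, knock-out minus wild type, of all tested probe sets of each array type (grey, counts per 0.25 on a log axis) with the tested collagens as coloured ticks by class. On MG-U74A the tested collagens have a median of 0.78 and all tested probe sets one of -0.09.

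Of 6 collagen genes with several tested probe sets on MG-U74A, 3 rose on every tested set (Col1a1, Col3a1 and Col6a1) and 1 had sets that changed in opposite directions (Col1a2). The other two, Col5a1 and Col18a1, combined rises with sets that did not pass. Several collagen genes are direct neighbours, with 0 protein-coding genes between them in the annotation. Besides Col4a1 with Col4a2 and Col6a1 with Col6a2, these included Col3a1 with Col5a2, which were 3.87-fold and 1.83-fold higher in knock-out islets on their brightest probe sets. Col9a1 and Col19a1 are neighbours as well, and neither had a call.

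Genes that make, bind or degrade collagen were counted from 7 lists, with the tested probe set of the highest mean for each gene. Each count on MG-U74A stands against the 23.9% of all tested probe sets that rose and the 29.0% that fell, and no list was tested against the other genes. The fibril-associated proteoglycans and glycoproteins rose for 7 of 9 tested genes on MG-U74A, with the other 2 not past the threshold and a median log2 change of 1.45. Dcn (decorin), which binds fibrils and limits their growth, read 7032 and 7092 in knock-out islets against 1643 and 1560.4 in wild type islets, a log2 change of 2.12 ± 0.04 (adjusted p = 9.54e-05). Bgn (biglycan), its close relative, rose by 1.72 ± 0.03 (adjusted p = 1.00e-04) and Sparc, a collagen-binding glycoprotein, by 1.69 ± 0.12 (adjusted p = 0.00105).

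Collagen biosynthesis and processing had 6 rises and 1 fall among 13 tested genes on MG-U74A, with a median log2 change of 0.28. Serpinh1, the collagen chaperone of the endoplasmic reticulum, read 2666 and 2758 in knock-out islets against 1254 and 1277 in wild type islets, a log2 change of 1.08 ± 0.04 (adjusted p = 2.46e-04). Pcolce, which enhances procollagen trimming, rose by 0.72 ± 0.18 (adjusted p = 0.0304) and P4ha2, a subunit of the prolyl hydroxylase, by 0.63 ± 0.13 (adjusted p = 0.0211). The rise of P4ha2 was on 1 of its 2 tested probe sets. Mia3, which helps load procollagen into transport carriers, fell by 1.21 on the log2 scale (SE 0.07, adjusted p = 5.71e-04), at 236 and 235 in knock-out islets and 573 and 582 in wild type islets.

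On MG-U74B, where 8.59% of all tested probe sets rose and 8.87% fell, the same list had 3 rises and 1 fall among 8 tested genes. The collagen glycosyltransferase Colgalt1 rose by 1.46 ± 0.19 (adjusted p = 0.0135), the procollagen proteinase Bmp1 by 1.09 ± 0.22 (adjusted p = 0.0350) and the lysyl hydroxylase Plod1 by 0.89 ± 0.13 (adjusted p = 0.0173). Plod1 rose on 1 of its 2 tested probe sets. P3h1, a prolyl 3-hydroxylase, read -77.5 and -5.20 in knock-out islets and 325 and 408 in wild type islets. It passed as a fall (adjusted p = 0.0103), and since both knock-out arrays were below 0 its log2 change depends on the constant added. Of the 3 rises, that of Colgalt1 was smaller on MG-U74A (0.28 ± 0.07, adjusted p = 0.0323). Bmp1 passed on neither of its 2 tested probe sets of MG-U74A (0.77 ± 0.31 on the brighter, adjusted p = 0.104).

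Cross-linking genes had 2 rises among 3 tested genes on MG-U74A. Loxl1, a lysyl oxidase, read 360.1 and 219 in knock-out islets against 76.4 and 78.9 in wild type islets, a log2 change of 1.58 ± 0.26 (adjusted p = 0.00977), and the transglutaminase Tgm2 rose by 1.48 ± 0.09 (adjusted p = 7.46e-04). Lox, the founding lysyl oxidase, stood at 0.84 ± 0.27 and did not pass (adjusted p = 0.0653), nor did Loxl3, the 1 gene of the list tested on MG-U74B.

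Collagen receptors had 1 rise and 1 fall among 5 tested genes on MG-U74A, shares near those over all tested probe sets. Itgb1, the beta 1 integrin chain shared by the collagen-binding integrins, rose by 0.38 ± 0.06 (adjusted p = 0.00911). Ddr1, the discoidin-domain receptor of epithelial cells, read 408 and 405 in knock-out islets against 1132 and 1171 in wild type islets, a log2 change of -1.45 ± 0.05 (adjusted p = 2.46e-04). Its relative Ddr2, found on fibroblasts, was at -0.25 ± 0.22 and did not pass (adjusted p = 0.394).

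Partners of type IV collagen in the basement membrane had 4 rises and 1 fall among 9 tested genes on MG-U74A, with a median log2 change of 0.28. The laminin chain Lama4, of vessel membranes, read 252 and 264 in knock-out islets against 63.3 and 58.7 in wild type islets, a log2 change of 1.72 ± 0.13 (adjusted p = 0.00126). Lamc1 rose by 1.21 ± 0.15 (adjusted p = 0.00485) and Hspg2 (perlecan) by 0.77 ± 0.17 (adjusted p = 0.0217). Lama5, another laminin chain, fell by 0.84 on the log2 scale (SE 0.19, adjusted p = 0.0264).

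Proteases that degrade collagen and their inhibitors had 5 rises among 8 tested genes on MG-U74A, and the other 3 did not pass, with a median log2 change of 0.50. Mmp9, a gelatinase, read 331 and 420.5 in knock-out islets against 65.5 and 72.2 in wild type islets, a log2 change of 2.09 ± 0.16 (adjusted p = 0.00130). Mmp3 (stromelysin) rose by 1.87 ± 0.06 (adjusted p = 1.90e-04) and Timp1, an inhibitor of these enzymes, by 1.66 ± 0.05 (adjusted p = 1.92e-04). Genes on both sides, enzymes and inhibitors, were thus among the rises.

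Transforming growth factor beta is the best known inducer of fibrillar collagen genes, and of 10 tested genes of its pathway on MG-U74A 4 rose and 6 did not pass, with a median log2 change of -0.01. Ltbp2 rose by 1.02 ± 0.18 (adjusted p = 0.0121), the ligand Tgfb3 by 0.83 ± 0.15 (adjusted p = 0.0137) and Ccn1, a matricellular target, by 0.72 ± 0.13 (adjusted p = 0.0146). The other rise was that of the ligand Tgfb1, by 0.56 ± 0.13 (adjusted p = 0.0252). Among the 6 that did not pass, Ccn2 stood at -0.24 ± 0.13 (adjusted p = 0.187) and Smad4 at 0.09 ± 0.15 (adjusted p = 0.620). On MG-U74B, against the 8.59% above, 4 of 7 tested genes rose and the other 3 did not pass, with a median log2 change of 0.94. Of those 3 the receptor Tgfbr1 stood at -0.50 ± 0.13 (adjusted p = 0.0615) and Skil at 0.30 ± 0.11 (adjusted p = 0.131). The signal transducer Smad3 rose by 1.90 ± 0.30 (adjusted p = 0.0206), the receptor Tgfbr2 by 1.37 ± 0.11 (adjusted p = 0.00658) and the co-repressor Ski by 1.09 ± 0.14 (adjusted p = 0.0122). Ski had the opposite sign on its MG-U74A probe set, where it did not pass (-0.45 ± 0.15, adjusted p = 0.0622).

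**Figure D4:**
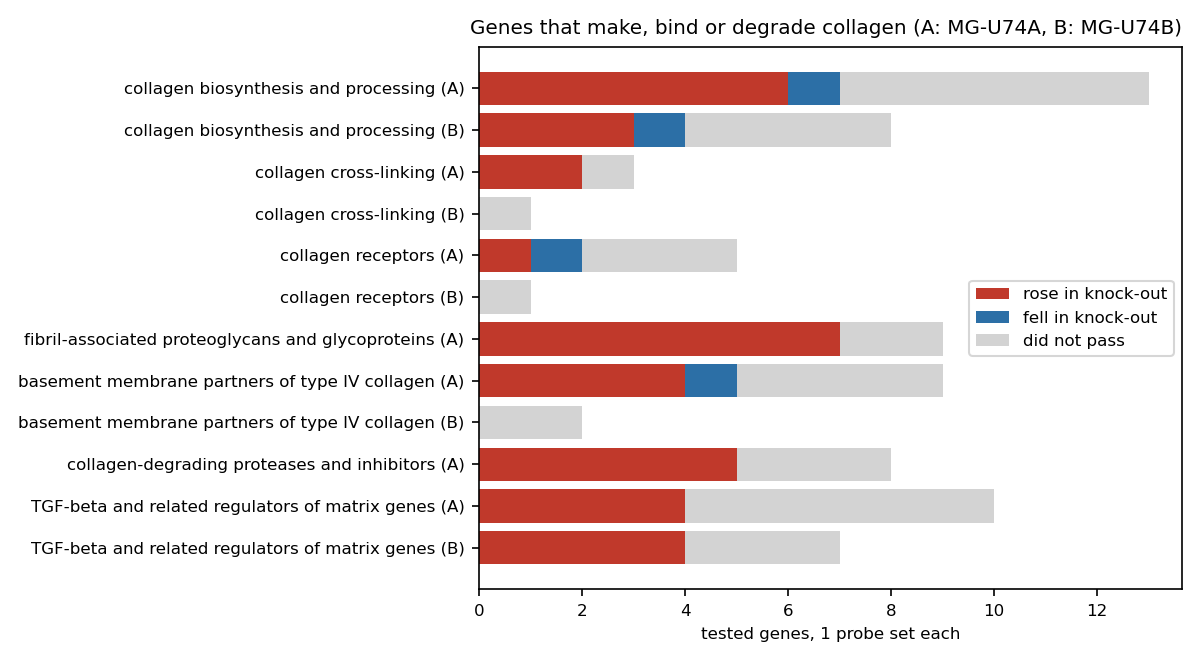
Number of tested genes of each collagen-related list that rose in knock-out islets (red), fell (blue) or did not pass (grey), 1 probe set for each gene, by array type. Fibril-associated proteoglycans and glycoproteins on MG-U74A have 7 rises among 9 tested genes, and receptors on that array type 1 rise and 1 fall among 5.

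Markers of cells that make collagen were counted on the same arrays, where 23.9% of all tested probe sets of MG-U74A rose and 29.0% fell. Of 15 tested markers of fibroblasts and stellate cells on MG-U74A, chosen without collagens, 12 rose, 1 fell and 2 did not pass, with a median log2 change of 0.97. The 16 genes of that list present on the array type summed to 14257 and 14171 in knock-out islets against 5288 and 5106 in wild type islets. Dcn alone gave 7032 and 7092 of the knock-out sums and 1643 and 1560.4 of the wild type sums. Dcn, Lum and Loxl1 are also in the lists above. Thy1, which mouse T cells carry as well, rose by 2.70 ± 0.18 (adjusted p = 8.72e-04) and Pdgfrb by 1.33 ± 0.13 (adjusted p = 0.00224). Pdgfra stood at 0.15 ± 0.26 and did not pass (adjusted p = 0.641). The fall was Fbln1, on 2 of 2 tested probe sets (-0.45 ± 0.08 on the brighter, adjusted p = 0.0111). Smooth muscle and pericyte markers had 6 rises among 8 tested genes, and their sums over 11 genes were 7324 and 6904 in knock-out islets against 4887 and 4902 in wild type islets. Acta2, the smooth muscle actin of activated stellate cells, read 536 and 727 in knock-out islets and -3.2 and -55.4 in wild type islets. Cnn1 read 271 and 433 in knock-out islets and -27.9 and -20.6 in wild type islets. Both rose (adjusted p = 3.66e-04 for Acta2 and 0.00110 for Cnn1). Since both were below 0 on both wild type arrays, their log2 changes depend on the constant added. Endothelial markers had 6 rises and 1 fall among 10 tested genes, with Vwf below 0 on both wild type arrays. Their sums over 11 genes were 5740.5 and 5532 in knock-out islets against 4722 and 4797 in wild type islets. Eng, which did not pass, gave 2635 and 2445 of the knock-out sums and 2330 and 2364 of the wild type sums. Icam2 rose most, by 1.63 ± 0.20 (adjusted p = 0.00468). The fall was Emcn, on 1 of its 2 tested probe sets (-0.65 ± 0.10, adjusted p = 0.00779). Flt1 stood at -0.42 ± 0.14 (adjusted p = 0.0684) and on MG-U74B at -0.47 ± 0.23 (adjusted p = 0.221), and did not pass. On MG-U74B, where 8.59% of all tested probe sets rose, fewer of these markers were tested, and 1 of 3 of smooth muscle and pericytes rose. On their brightest tested probe sets the 4 endothelial markers there did not pass, with a median log2 change of -0.05. Plvap, 1 of these 4, rose on 1 of its 3 tested probe sets. The 1 marker of fibroblasts and stellate cells did not pass. Mylk, the myosin kinase of smooth muscle, rose on MG-U74A by 1.03 ± 0.07 (adjusted p = 0.00103), while its MG-U74B probe set stood at -2.46 ± 0.67 and did not pass (adjusted p = 0.0711).

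Markers of other kinds of cells changed as well, and the same shares over all tested probe sets of MG-U74A stand beside their counts. All 7 tested lymphocyte markers and 8 of 9 tested macrophage markers rose on MG-U74A. Sums over 9 lymphocyte genes were 21610.0 and 20835 in knock-out islets against 4202 and 4139.9 in wild type islets. Ighm alone gave 12677 and 11697 of the knock-out sums and 2362 and 2324 of the wild type sums. Macrophage sums over 10 genes were 8046 and 8446 in knock-out islets against 3001 and 2752 in wild type islets. In the list of lymph node reticular cells and vessels 2 of 4 tested genes rose and 1 fell, and Cxcl13 was below 0 on both wild type arrays. Sums over its 6 genes were 4851 and 4893 in knock-out islets against 1124 and 841 in wild type islets. The rises were Glycam1 and Ltb, which is also counted as a lymphocyte marker. Glycam1 gave 2334 and 2311 of the knock-out sums and Ltb 1128 and 1491. Madcam1 gave 999 and 726 of the knock-out sums and did not pass on its brighter probe set (1.61 ± 0.49, adjusted p = 0.0550). It rose on 1 of its 2 tested probe sets. The fall was Lyve1 (-0.31 ± 0.08, adjusted p = 0.0380). Schwann cell markers had 1 rise and 1 fall among 4 tested genes, with sums over 5 genes of 1175 and 1014 in knock-out islets against 955 and 885 in wild type islets. All 7 beta cell and all 5 acinar cell markers tested fell, and duct cell markers had 1 rise and 2 falls among 5. The part of these cell types in the changes of the collagens was not tested.

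**Figure D5:**
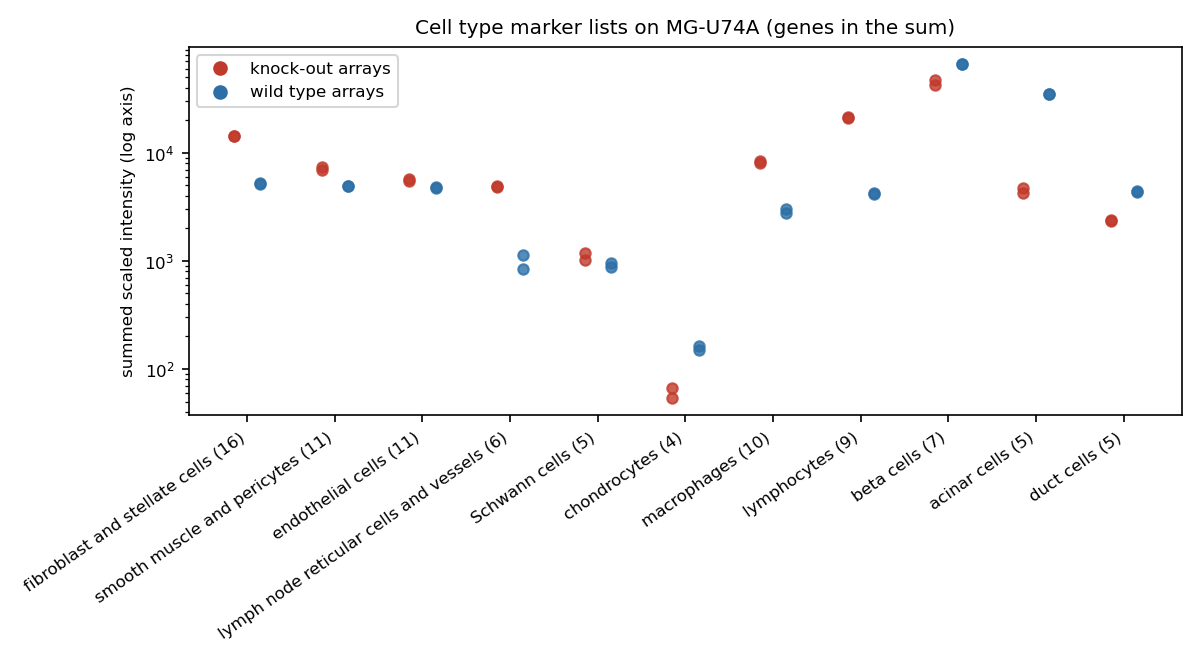
Summed scaled intensity (log axis) of each cell type marker list on the arrays of MG-U74A, with the number of genes in the sum in brackets, knock-out left of wild type. Fibroblast and stellate cell markers sum to 14257 and 14171 on the knock-out arrays and 5288 and 5106 on the wild type arrays, and acinar markers to 4678 and 4207 against 34939.6 and 35169.5. A bright gene can hold much of a sum, such as Actg2 for smooth muscle and pericytes.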

How the data were processed

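The authors deposited linear intensities, 1 per probe set and array, whose trimmed means show that they had been scaled (250.2 for MG-U74A arrays, 250.1 for MG-U74B arrays, with 2% of probe sets trimmed on each side). Which software made them was not given in the sources used here. An array had 18.4% to 26.7% of its deposited intensities below 0. Arrays of a type were brought to their common trimmed mean and negative values replaced by 0, after which 25.0 (10% of that mean) was added to the deposited intensities before taking log2, so log2 changes understate the ratios of low probe sets. Probe sets with a mean under 62.5 (25%) and 66 controls per array type were not tested, which left 7516 of 12488 probe sets on MG-U74A and 7861 of 12477 on MG-U74B. Each array type was fitted apart with lmFit and eBayes with a variance trend (limma 3.58.1, R 4.3.3), two-sided, Benjamini-Hochberg adjusted over all tested probe sets, at a threshold of 0.05. With 2 arrays in each group no exact permutation p is below 0.333, so p-values rest on limma's pooling, and nothing in the labels beyond the word biological shows separate animals, so the spread may be partly technical. For arrays their number limits the precision.

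Names came from the array annotation, brought to current symbols through GRCm38.p6, and no collagen symbol needed a change. The annotation gave 1 symbol to 10855 probe sets of MG-U74A and 10603 of MG-U74B, several to 396 and 178, which name no gene, and none to 1237 and 1696. Every collagen probe set was described, and list genes were named where they held up to 3 of the largest called rises or falls. The members, lists and tests were chosen with earlier results of these data known. The targeted gene is not reported here, so the labels alone give the genotypes. Alternatives were quantile normalization, other constants and filters, no variance trend, a replicate block and leaving out each array.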

Additional observations from a re-analysis of the deposited data

How the results depend on the processing

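The direction and side of the threshold of the 32 tested collagen probe sets were compared under the alternatives, 347 comparisons in all, of which 318 stayed the same, 19 lost the call, 4 gained one and 6 changed sign. The 17 rises on MG-U74A stayed at 17 under every alternative for processing, of which 16 were shared without the filter, and leaving out 1 array gave 14 to 17. The falls numbered 2 under the processing alternatives except with the replicate block, at 1 (Col9a3, adjusted p = 0.0950, was lost), and without the filter 1 of the 2 was shared, Col13a1 on 102262_r_at standing in for Col9a3. They numbered 0 to 4 with 1 array left out. They were 0 by limma without wild type replicate 1 or 2, where 19 and 18 collagens had an unadjusted p under 0.05 in either direction. Same-numbered arrays shared only a number: their deviations correlated at 0.0241 on MG-U74A and 0.0316 on MG-U74B. On MG-U74B the 1 rise became 0 without the filter, 0 without the variance trend and 0 with any 1 array left out, by limma, with at least 1 collagen at an unadjusted p under 0.05 each time. Sign changes with 1 array left out, all in probe sets without a call, were those of Col15a1 (range -0.66 to 0.20, positive without knock-out replicate 1), Col18a1 on 162483_f_at (-0.0032 to 0.39, negative without knock-out replicate 1), Col11a1 (-0.62 to 0.31, positive without knock-out replicate 2), Col5a1 on 101080_at (-0.080 to 2.39, negative without wild type replicate 2), and, negative without wild type replicate 1, Col9a1 (-0.056 to 0.44) and Col16a1 (-0.062 to 0.30). Calls gained with 1 array left out were falls of Col15a1, Col9a2 and Col13a1 on 102261_f_at. The cause was not tested. Over all probe sets the count changed on MG-U74A was 1203 rises and 1108 falls without wild type replicate 1 and 1182 and 1082 without wild type replicate 2, against 1796 and 2178. On MG-U74B, against 675 and 697, it was 332 and 432 without the filter, 295 and 343 without the variance trend, 69 and 243 without knock-out replicate 1, 139 and 399 without knock-out replicate 2, and 0 and 0 without either wild type array, where 1873 and 1817 probe sets had an unadjusted p under 0.05. The low signal of 24 collagen probe sets limits what can be said of 15 genes.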

Other observations

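Some proteins carry a collagen-like triple helix without a collagen name, and 29 of their genes were listed after values had been seen, so their counts are a description. On MG-U74A 6 of 10 tested genes rose and 2 fell, and on MG-U74B 2 of 6 rose and 1 fell. Over all tested probe sets 23.9% rose and 29.0% fell on MG-U74A, and 8.59% rose and 8.87% fell on MG-U74B. The complement genes C1qa, C1qb and C1qc, which macrophages make, were among the rises, with C1qb at 719 and 746 in knock-out islets against 72.8 and 116 in wild type islets. C1qb rose on 1 of its 2 tested probe sets. Marco, a scavenger receptor of macrophages, read 238 and 261 in knock-out islets against 54.4 and 53.4 in wild type islets. Colec12, a collectin of vessel and stromal cells, read 670.1 and 662 in knock-out islets against 109 and 89.6 in wild type islets on MG-U74B, a log2 change of 2.48 ± 0.24 (adjusted p = 0.00822).

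Colq, the collagen-like tail that anchors acetylcholinesterase, had opposite calls on the array types. On MG-U74A it read 280.0 and 261 in knock-out islets against 427 and 402 in wild type islets, a log2 change of -0.57 ± 0.08 (adjusted p = 0.00698). On MG-U74B another probe set read 997 and 990.2 in knock-out islets against 584 and 566 in wild type islets, a log2 change of 0.76 ± 0.13 (adjusted p = 0.0219). It joins Col1a2 as a gene whose probe sets changed in opposite directions, and which of the sets tracks the transcript was not tested.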
